A study of Mus musculus with 6 samples.

Results

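The nuclear genes of respiratory complexes II and III and of ATP synthase were followed in wild-type (WT) mouse embryonic fibroblasts (MEFs), which are connective tissue cells grown from embryos. The members were the genes of the raw count table whose symbols name a subunit, an assembly factor or the inhibitor of these complexes (Sdh, Uqcr, Uqcc, Cyc1, Bcs1l, Ttc19, Atp5, Atpaf and Atpif1). Each had to reach 10 counts in every library, and symbols marked as pseudogenes by -ps were left out. Of 50 matching symbols, 8 were pseudogenes, 0 were under the minimum, and 42 were kept, out of 55291 genes listed. Complex II had 8 genes, complex III had 14 and ATP synthase had 20. All 42 also passed edgeR's filter on low counts, which kept 14290 genes.

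All libraries came from cells labelled WT, treated with vehicle, with MASM7, an activator of mitofusins, or with MFI8, an inhibitor of mitofusins. Mitofusins are the proteins that tether and fuse the outer membranes of mitochondria. Each group had 2 libraries of polyadenylated RNA. MASM7 was applied at 1 μM and MFI8 at 20 μM, each for 6 h, and effects of a compound cannot be told apart from those of its dose. The duration of vehicle treatment is not given in the sources used here. No source used here says that libraries of a group came from separate cultures, so that the tests below measure the spread between libraries only.

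Complex II, succinate dehydrogenase, oxidises succinate in the matrix and passes the electrons to ubiquinone in the inner mitochondrial membrane. Complex III takes them from ubiquinol to cytochrome c and moves protons across that membrane. ATP synthase lets the protons return through a rotating ring of c subunits and uses that rotation to make ATP in its F1 head. All of complex II is encoded in the nucleus, whereas complex III holds a subunit made from mitochondrial DNA, cytochrome b (mt-Cytb), and ATP synthase holds another pair (mt-Atp6 and mt-Atp8).

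The libraries held 22791792 to 30677751 counts. The summed share of the 42 genes was 0.754% and 0.747% in the vehicle libraries, 0.747% and 0.783% in the MASM7 libraries, and 0.743% and 0.738% in the MFI8 libraries. The 95% Wilson interval of the second MASM7 library, 0.780% to 0.786%, lay above those of all other libraries, the highest of which ended at 0.757%, and such intervals cover counting error only. The medians of the MASM7 comparisons, and the numbers of members above or below 0, are therefore given with and without it. The same holds for the named members that it moved most. Of 12 fibroblast markers, 9 were at 1 TPM or more in every library, with a summed level of 5468 to 7052 TPM, while Thy1, Lum and Postn were under 1 TPM throughout. Endothelial, epithelial and skeletal muscle markers each summed to under 1 TPM in every library. Of 6 immune markers, Cd68, Csf1r and Cd14 were detected (summed level of the list 40.0 to 47.5 TPM) and Ptprc, Adgre1 and Lyz2 were under 1 TPM. Of 4 neural markers, Sox10 and Gfap were under 1 TPM, and the summed level, nearly all from Tubb3 and Map2, was 52.6 and 54.9 TPM with vehicle, 67.7 and 66.9 TPM with MASM7, and with MFI8 it was 74.4 and 67.0 TPM. The part of these markers in the results below was not tested. In such bulk samples, fewer cells of a type and less RNA per cell cannot be told apart.

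The levels of the genes spanned 397-fold with vehicle, from 1584 ± 20.6 TPM (SD, n = 2) for Atp5b, the catalytic beta subunit of the F1 head, to 3.99 ± 0.27 TPM for Atpaf1, the chaperone of that same subunit. TPM, an abundance per gene length scaled to the library as the authors deposited it, is used wherever genes are compared with each other. Among subunits, the median vehicle level was 172 TPM for the 4 genes of complex II, 352 TPM for the 9 of complex III and 234 TPM for the 17 of ATP synthase. Per kb of the principal transcript the order of the last pair was the other way, with medians of 81.4, 163 and 209 CPM per kb. The subunits of complex III lay closest together, with a 3.25-fold span in TPM, against 5.71-fold in complex II and 127-fold in ATP synthase. Per kb of the principal transcript the span of ATP synthase was narrower, from 41.8 to 990 CPM per kb. There complex III ran from 69.9 to 247 and complex II from 22.6 to 126 CPM per kb.

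In complex II, the membrane anchor Sdhd had the highest vehicle level, 445 ± 13.7 TPM. It was followed by the flavoprotein Sdha at 183 ± 0.71 TPM, the iron-sulfur subunit Sdhb at 161 ± 3.14 TPM and the other anchor, Sdhc, at 77.9 ± 2.17 TPM. The 4 assembly factors were all lower in TPM than any subunit. Sdhaf2, which attaches the flavin cofactor to Sdha, was at 34.5 ± 1.56 TPM, Sdhaf4 at 27.1 ± 0.27 TPM, Sdhaf1 at 10.5 ± 2.46 TPM and Sdhaf3 at 4.12 ± 0.65 TPM. The anchors, which are parts of the same membrane domain, therefore sat at the top and the bottom of the subunits.

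In complex III, the small subunit Uqcr10 was highest in TPM, at 597 ± 29.4. Cytochrome c1 (Cyc1) was at 481 ± 2.66 TPM, the Rieske iron-sulfur protein Uqcrfs1 at 377 ± 16.5 TPM, Uqcr11 at 371 ± 55.9 TPM, Uqcrb at 352 ± 13.7 TPM and the hinge protein Uqcrh at 348 ± 2.63 TPM. Neighbours in this order from Uqcrfs1 to Uqcrh did not differ beyond their spread. The core proteins Uqcrc1 and Uqcrc2 were at 224 ± 8.80 and 184 ± 4.85 TPM, with Uqcrq between them at 193 ± 6.98 TPM. Among the assembly factors, Uqcc2, which acts on cytochrome b, was at 376 ± 46.1 TPM, within the range of the subunits. The others were far lower, with Uqcc3 at 63.6 ± 4.22 TPM, Uqcc1 at 40.0 ± 0.33 TPM, Ttc19 at 33.5 ± 1.15 TPM and Bcs1l, the ATPase that inserts the Rieske protein, at 18.1 ± 0.090 TPM.

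In ATP synthase, Atp5b and the alpha subunit Atp5a1 (1206 ± 6.20 TPM) led all 42 genes. Of the summed TPM of the ATP synthase subunits, Atp5b held 23.8% and 24.5% and Atp5a1 held 18.2% and 18.6% in the vehicle libraries. Of the other F1 subunits, the rotor shaft Atp5c1 was at 536 ± 19.6 TPM, Atp5d at 358 ± 27.6 TPM and Atp5e at 152 ± 10.7 TPM. The peripheral stalk, which holds the head still, was within a narrow band, with Atp5o at 282 ± 21.8 TPM, Atp5pb at 266 ± 13.6 TPM, Atp5h at 234 ± 11.1 TPM and Atp5j at 153 ± 2.96 TPM. The small membrane subunits ran from Atp5k at 491 ± 17.9 TPM through Atp5md at 194 ± 2.05 TPM, Atp5mpl at 151 ± 1.11 TPM and Atp5j2 at 120 ± 5.60 TPM to Atp5l at 12.5 ± 0.54 TPM. The inhibitor Atpif1, which blocks the reverse reaction, was at 146 ± 10.8 TPM, and the chaperone Atpaf2 at 65.6 ± 0.14 TPM.

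**Figure D1:**
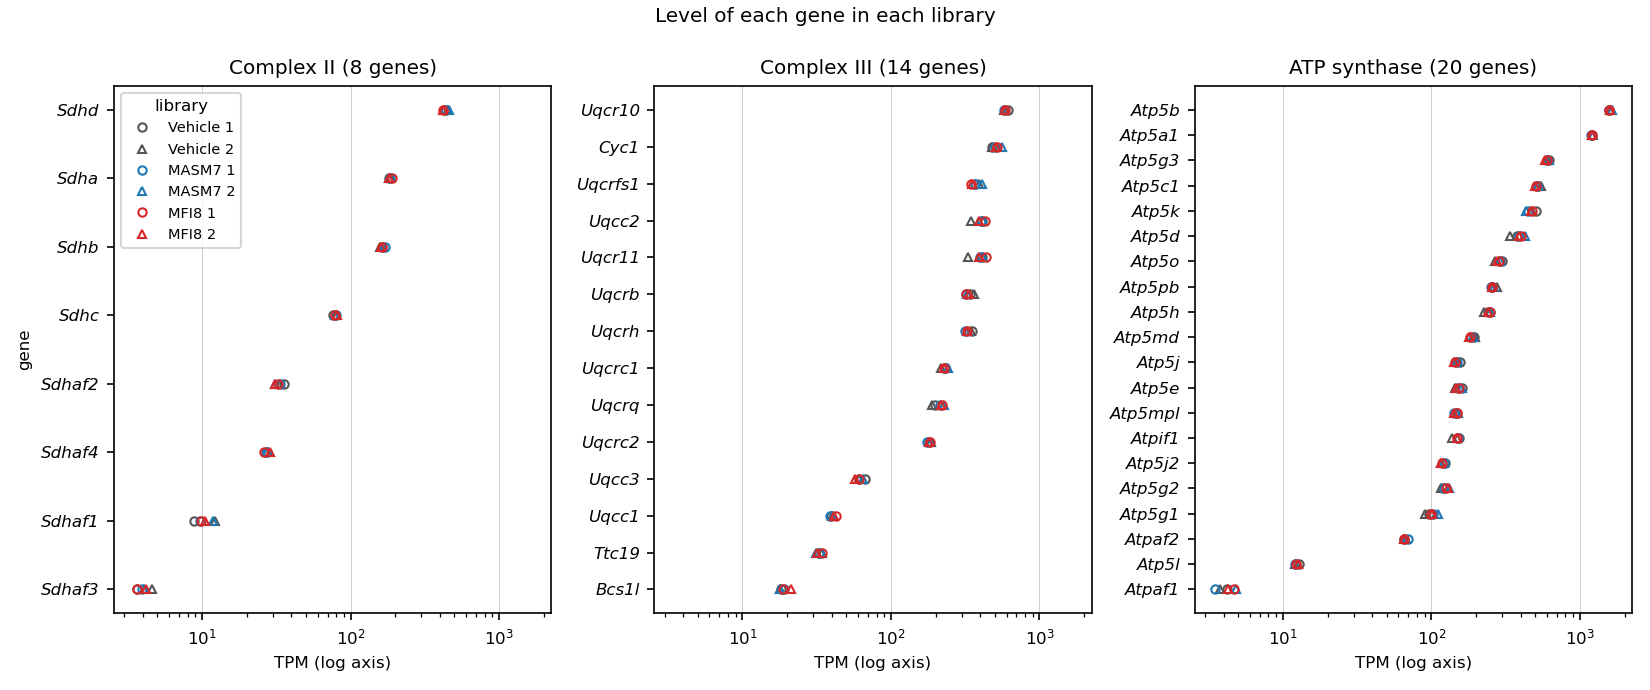
Level of each gene in each of the 6 libraries, in TPM on a log axis, with 1 panel for each complex and genes ordered by their vehicle mean. The libraries of a gene nearly coincide, while the genes of a panel spread from 4.12 to 445 TPM in complex II and from 3.99 to 1584 TPM in ATP synthase.

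The order of the levels depends on the gene length used, at high levels as well as low ones. The lengths behind the authors' TPM equalled the merged exons of all annotated transcripts within 1% for 39 of the 42 genes (not Atp5o, Atpaf1 and Atpaf2), and these merged exons had a median of 2168 bases, against 943 bases for the shortest principal transcript of each gene. For Atp5l, the merged exons had 6443 bases and the principal transcript 544. Per length of the principal transcript, Atp5l was 31st rather than 39th, Atp5g1 10th rather than 30th and Atp5md 4th rather than 19th among the 42. In complex III, Uqcrq led at 247 CPM per kb (6th rather than 20th), above Uqcr10 at 227, and Cyc1 was 15th rather than 7th. In complex II, Sdhd was 24th rather than 8th, still the highest, and Sdhaf2 at 23.5 CPM per kb passed Sdhc at 22.6. Atp5b was first and Atp5a1 among the first 3 by both lengths.

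The c ring of ATP synthase is built from copies of 1 small protein that is made from 3 nuclear genes, Atp5g1 (chr11:96068852-96075670), Atp5g2 (chr15:102662864-102672352) and Atp5g3 (chr2:73908447-73911326, all GRCm38, minus strand). The genes differ in the targeting sequence that is cut off on import. Their coding sequences are shown because the shares below need reads that tell the genes apart. In the GENCODE vM21 transcripts (GRCm38), the last 78 codons before the stop encode the same protein in all 3 genes. The stretches of 237 bases that hold these codons and the stop are given 5′ to 3′, with capitals at the bases that differ from Atp5g3.
Atp5g3: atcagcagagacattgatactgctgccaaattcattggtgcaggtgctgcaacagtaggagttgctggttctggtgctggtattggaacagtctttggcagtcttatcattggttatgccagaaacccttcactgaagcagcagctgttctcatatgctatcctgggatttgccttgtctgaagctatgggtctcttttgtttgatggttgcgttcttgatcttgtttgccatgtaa
Atp5g1: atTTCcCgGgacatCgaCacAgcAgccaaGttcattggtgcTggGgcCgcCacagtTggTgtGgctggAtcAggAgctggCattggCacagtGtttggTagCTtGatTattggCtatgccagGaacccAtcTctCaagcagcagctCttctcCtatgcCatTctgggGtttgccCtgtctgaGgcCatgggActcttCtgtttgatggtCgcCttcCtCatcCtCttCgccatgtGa
Atp5g2: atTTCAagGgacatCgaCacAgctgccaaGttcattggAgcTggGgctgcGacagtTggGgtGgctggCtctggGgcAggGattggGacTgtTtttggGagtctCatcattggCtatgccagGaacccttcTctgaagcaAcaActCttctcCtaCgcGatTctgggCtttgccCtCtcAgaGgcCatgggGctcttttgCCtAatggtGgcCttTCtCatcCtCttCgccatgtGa
Atp5g1 differed from Atp5g3 at 51 of these bases and Atp5g2 at 54, and Atp5g1 differed from Atp5g2 at 36. The longest run without a difference was 21 bases, between Atp5g1 and Atp5g2. Processed pseudogenes were closer. Of all stretches of 50 bases in the annotated transcripts of a gene, 38.3% of those of Atp5g2 and 10.2% of those of Atp5g1 occurred letter for letter in transcripts of other genes, against 0.0% for Atp5g3. Transcripts of pseudogenes held 36.7% of the stretches of Atp5g2 and 7.52% of those of Atp5g1. How reads that match several places were counted is not given in the sources used here.

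Atp5g3 gave most of the c-subunit RNA, and its share was lower with either compound than with vehicle. It held 74.1% and 74.5% of the summed TPM of the 3 genes with vehicle, 72.9% and 71.9% with MASM7, and with MFI8 it held 73.0% and 71.8%. Atp5g1 held 11.5% and 11.2% with vehicle, 12.3% and 12.9% with MASM7, and with MFI8 it held 11.9% and 12.4%. Atp5g2 held 14.3% in both vehicle libraries, 14.8% and 15.2% with MASM7, and with MFI8 it held 15.1% and 15.8%. For all 3 genes both libraries of either compound lay outside the vehicle pair, and the compounds overlapped with each other for Atp5g1, Atp5g2 and Atp5g3. The shares of a library add up to the whole, so that these are not separate observations. A lower share of Atp5g3 can come from higher levels of the other c-subunit genes. For Atp5g1 the mean share was 11.4% ± 0.23 (SD, n = 2) with vehicle, 12.6% ± 0.40 with MASM7 and 12.2% ± 0.35 with MFI8. The shares were not tested: the exact permutation test used for single values cannot go below p = 0.333 with 2 libraries against 2. Both compounds were compared with the same vehicle libraries. By raw counts, which weigh long transcripts more, the mean share of Atp5g3 was 67.0% with vehicle, 64.5% with MASM7 and 64.8% with MFI8, and per length of the principal transcript it was 60.5%, 58.0% and 58.2%. The levels of the shares thus depended on the length used, and their order between vehicle and the compounds was the same by all 3 measures of length. Joint offsets for GC content and length changed one of the orders: with them the log2 fold change with MASM7 was 0.24 for Atp5g1, 0.01 for Atp5g2 and 0.06 for Atp5g3, so that Atp5g2 was no longer higher relative to Atp5g3, and with MFI8 it was 0.08, 0.06 and -0.0018.

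**Figure D2:**
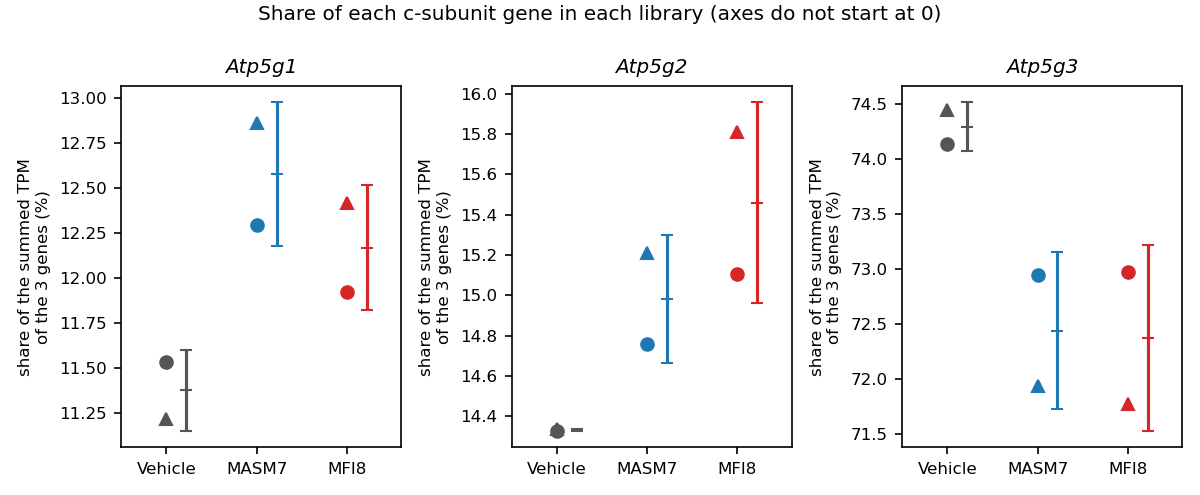
Share of Atp5g1, Atp5g2 and Atp5g3 in the summed TPM of the 3 genes, in percent, with circles for the libraries numbered 1, triangles for those numbered 2 and bars for the mean ± SD of a group (n = 2). The vehicle libraries sit lowest for Atp5g1 (11.5% and 11.2%) and Atp5g2 and highest for Atp5g3 (74.1% and 74.5%), and the axes do not start at 0; with MASM7 the order of Atp5g2 against Atp5g3 turned under offsets for GC content and length.

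The promoters of the 3 genes were searched for short motifs and were not aligned with each other. The 250 bases before each start in the RefSeq promoters (GRCm38.p6; all 3 genes lie on the minus strand, and the sequences read in the direction of transcription) are printed with capitals at matches, on either strand, to NRF1 (GCATGCGC), the ETS family factor GABPA (CCGGAAGT), YY1 (AAGATGGC), the CCAAT box (CCAAT) and the TATA box (TATAAA).
Atp5g1 (chr11:96075632-96075881): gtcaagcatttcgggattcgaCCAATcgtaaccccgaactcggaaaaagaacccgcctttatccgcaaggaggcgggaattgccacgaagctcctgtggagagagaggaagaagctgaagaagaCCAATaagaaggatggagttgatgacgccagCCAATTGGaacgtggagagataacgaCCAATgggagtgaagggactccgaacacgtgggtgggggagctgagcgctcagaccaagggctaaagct
Atp5g2 (chr15:102671048-102671297): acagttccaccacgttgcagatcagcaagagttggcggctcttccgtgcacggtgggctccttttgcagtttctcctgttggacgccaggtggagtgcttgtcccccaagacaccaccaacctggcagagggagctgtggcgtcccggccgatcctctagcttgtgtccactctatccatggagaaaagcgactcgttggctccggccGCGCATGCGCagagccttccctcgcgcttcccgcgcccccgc
Atp5g3 (chr2:73911327-73911576): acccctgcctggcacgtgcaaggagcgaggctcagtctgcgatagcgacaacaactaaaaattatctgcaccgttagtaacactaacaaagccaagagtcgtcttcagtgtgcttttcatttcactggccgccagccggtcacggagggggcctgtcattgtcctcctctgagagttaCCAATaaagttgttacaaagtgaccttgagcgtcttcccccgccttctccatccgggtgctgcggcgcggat
Atp5g1 held 5 CCAAT matches, a pair of which, on opposite strands, share 2 bases. Atp5g2 held a palindromic NRF1 match that reads on both strands, 42 and 40 bases before the start, and no CCAAT. Atp5g3 held 1 CCAAT match, 72 bases before the start, and the nearest of the Atp5g1 matches stood 69 bases before its start. Of all 32851 RefSeq promoters 0.213%, and of the 12528 promoters of genes tested 0.399%, held 5 or more CCAAT matches, as did 2 of the 39 promoters of members (5.13%), those of Atp5g1 and Atp5b. The minimum of 5 equals the count in Atp5g1, so that the share among members partly restates that count.

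Promoters were listed for 35 of the 42 genes, with 39 starts, and not for Atp5a1, Atp5mpl, Cyc1, Sdhc, Uqcrb, Uqcrc2 and Uqcrq. NRF1 and GABPA are factors known to drive nuclear genes of respiration. The NRF1 letters stood in 5 of the 39 promoters (12.8%; Atp5g2, Atp5k, Atp5l, Sdhb and Ttc19), against 4.39% of the promoters of genes tested and 2.26% of all promoters. The ETS letters stood in 4 (10.3%; Atp5h, Bcs1l, Uqcr11 and Uqcrh), against 5.97% and 2.88%. CCAAT stood in 48.7%, against 35.8% and 33.8%, YY1 letters in 2.56%, against 2.08% and 1.56%, and a TATA box in 5.13%, against 6.37% and 12.4%. A match is a description of the letters and not of binding.

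MASM7 against vehicle asked what activation of fusion did to these genes. None of the 42 passed the test: at an adjusted p under 0.05 (Benjamini-Hochberg), edgeR's quasi-likelihood fit called 0 of 14290 genes (0.0%), with a smallest adjusted p of 0.466, which was that of a member, Uqcrq. When the library number entered the model as a block, Uqcrq, Atp5g1 and Atp5d were called (edgeR, adjusted p = 0.0222, 0.0222 and 0.0269), among 554 genes, and no source used here says that the numbers pair the libraries. DESeq2 called 3 genes, 0 of them members. At an unadjusted p under 0.05, 4 of the 42, or 9.52%, were higher, where 5.32% of all genes were, and 1, or 2.38%, was lower, where 4.88% were. Of the 42, 29 had a log2 fold change above 0 and 13 below, with a median of 0.033 (1.02-fold), and the median of all genes tested was 0.00067. Both MASM7 libraries were above both vehicle libraries for 12 of the 42, or 28.6%, where 21.2% of all genes were, and below them for 5, or 11.9%, where 21.6% were. With offsets for GC content and length 32 of the 42 had a log2 fold change above 0. Their median was then 0.035, against 8.3e-05 for all genes. Without the first MASM7 library 32 were above 0 as well, with a median of 0.048 (-0.0037 for all genes). Without the second MASM7 library, 20 had a log2 fold change above 0 and 22 below, the median was -0.0038 (-0.0039 for all genes) and 0 members had an unadjusted p under 0.05, beside 563 of 14604 genes tested, in a fit where the single MASM7 library is assumed to vary like the other groups, while without the second vehicle library 24 were above 0 and the median was 0.0063.

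The medians of the complexes with MASM7 were 0.026 for complex II (6 of 8 genes above 0), 0.030 for complex III (9 of 14) and 0.043 for ATP synthase (14 of 20). Without the second MASM7 library they were 0.00042 (4 of 8), -0.026 (6 of 14) and 0.00031 (10 of 20). Offsets for GC content and length gave 0.031 (7 of 8), 0.037 (11 of 14) and 0.034 (14 of 20). In complex III, Uqcrq, a small supernumerary subunit, had 103 and 96.9 CPM with vehicle (CPM, counts scaled to library size with TMM factors, on which libraries are compared) and 111 and 120 CPM with MASM7. Its log2 fold change was 0.21 ± 0.06 (SE; edgeR, adjusted p = 0.466; unadjusted 95% interval 0.07 to 0.34). Cyc1, the cytochrome that hands electrons to cytochrome c, had 294 and 292 CPM with vehicle and 310 and 343 CPM with MASM7 (log2 fold change 0.16 ± 0.06, edgeR, adjusted p = 0.477). Uqcrb was lower on this scale, and higher with offsets for GC content and length (log2 fold change 0.07), at 85.3 and 89.0 CPM with vehicle and 80.4 and 81.9 CPM with MASM7 (-0.10 ± 0.06, edgeR, adjusted p = 0.547). For these 3 genes the groups did not overlap, and the second MASM7 library was the higher of its pair each time. Without that library the log2 fold change was 0.15 for Uqcrq, 0.08 for Cyc1 and -0.11 for Uqcrb. Offsets for GC content and length left Uqcrq at 0.19 and brought Cyc1 to 0.0014.

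In ATP synthase, Atp5g1 had 134 and 125 CPM with vehicle and 143 and 157 CPM with MASM7. Its log2 fold change was 0.21 ± 0.06 (edgeR, adjusted p = 0.473). Atp5d, the delta subunit of F1, had 207 and 183 CPM with vehicle and 214 and 236 CPM with MASM7 (0.21 ± 0.07, edgeR, adjusted p = 0.473). Both were higher in each MASM7 library than in either vehicle library, though the first MASM7 library exceeded the first vehicle library by little for Atp5d. Atp5k, a small membrane subunit, was lower, at 88.3 and 82.8 CPM with vehicle and 78.5 and 76.4 CPM with MASM7 (-0.14 ± 0.06, edgeR, adjusted p = 0.477). The other c-subunit genes differed less. Atp5g2 had 57.0 and 54.7 CPM with vehicle and 58.5 and 63.2 CPM with MASM7 (0.12 ± 0.06, edgeR, adjusted p = 0.531), and Atp5g3 had 384 and 370 CPM against 376 and 389 CPM (0.02 ± 0.05, edgeR, adjusted p = 0.891). Without the second MASM7 library the log2 fold changes were 0.14 for Atp5g1, 0.13 for Atp5d, -0.12 for Atp5k, 0.07 for Atp5g2 and -0.0012 for Atp5g3. Under the GC and length offsets Atp5d was at 0.08, while Atp5k was at -0.15. The inhibitor Atpif1 overlapped between groups, at 63.2 and 56.2 CPM with vehicle and 62.6 and 61.3 CPM with MASM7 (0.05 ± 0.07, edgeR, adjusted p = 0.793), and was at 0.0056 with the offsets.

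In complex II, the genes with the smallest p were Sdhb, Sdhaf2 and Sdhc. Sdhb had 104 and 99.9 CPM with vehicle and 108 and 106 CPM with MASM7 (log2 fold change 0.08 ± 0.05, edgeR, adjusted p = 0.622). Sdhaf2 had 72.9 and 67.5 CPM against 68.6 and 63.8 CPM (-0.09 ± 0.07, edgeR, adjusted p = 0.657), and Sdhc had 70.6 and 72.5 CPM against 73.9 and 73.5 CPM (0.04 ± 0.06, edgeR, adjusted p = 0.806). The Sdhaf2 groups overlapped, and its value was -0.03 without the second MASM7 library. Correction for GC content and length gave 0.03 for Sdhb, -0.0056 for Sdhaf2 and 0.04 for Sdhc. Sdha, the subunit that binds succinate, was between 213 and 216 CPM in all vehicle and MASM7 libraries.

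MFI8 against vehicle asked the same of inhibition of fusion. Again 0 of the 42 passed, and edgeR's quasi-likelihood test called 0 genes in all (0.0%), with a smallest adjusted p of 0.0924 over all genes and of 0.445 among the members. DESeq2 called 47 genes, 0 of them members. With the library number as a block, 720 genes and 0 members were called. When offsets for GC content and length were added to the block, 594 genes were called. Among them were Uqcrq and Atp5c1 (edgeR, adjusted p = 0.0261 and 0.0457), and no source used here says that the numbers pair the libraries. At an unadjusted p under 0.05, 6 of the 42 were lower (Atp5c1, Atp5j, Atp5md, Sdhaf2, Uqcrb and Uqcrh), or 14.3%, where 4.65% of all genes were, and 1 was higher (Uqcrq), or 2.38%, where 5.21% were. The count in either direction was 7 of 42, beside 1409 of 14290 genes, and it moved with the fit. It was 3 with offsets for GC content and length (1053 of 14290 genes), 2 with DESeq2 (830 of 14290 genes), 0 without the first MFI8 library (1299 of 15092 genes) and 0 without the second (869 of 14601 genes), where the single MFI8 library left is assumed to vary like the other groups. Uqcrb was above 0 with the offsets. Of the 42, 12 had a log2 fold change above 0 and 30 below, with a median of -0.032 (0.978-fold), and the median of all genes was 0.0027. Both MFI8 libraries were below both vehicle libraries for 17 of the 42, or 40.5%, where 19.3% of all genes were, and above them for 8, or 19.0%, where 20.9% were. Without the first vehicle library the split was 20 above 0 and 22 below, with a median of -0.0073. With offsets for GC content and length it was 18 above and 24 below, with a median of -0.013 against -0.0043 for all genes. On log2(TPM + 1) it was also 18 and 24, but there the median of all genes was higher as well, at 0.025, against -0.0046 for the members.

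The medians of the complexes with MFI8 were -0.045 for complex II (7 of 8 genes below 0; 4 of 8 and -0.0077 on log2(TPM + 1)), -0.024 for complex III (8 of 14; 0.011 after GC and length correction and 0.0036 on log2(TPM + 1)) and -0.032 for ATP synthase (15 of 20; 12 of 20 and -0.016 after GC and length correction, 13 of 20 and -0.0046 on log2(TPM + 1)). Without the first vehicle library complex III was at 0.030 and ATP synthase at -0.0065, and without the second complex II was at -0.0097 (5 of 8 below 0). Complex II was led by Sdhaf2, at 72.9 and 67.5 CPM with vehicle and 64.5 and 61.6 CPM with MFI8 (log2 fold change -0.16 ± 0.07, edgeR, adjusted p = 0.485; -0.10 without the first vehicle library). Sdhd had 153 and 157 CPM with vehicle and 144 and 143 CPM with MFI8 (-0.11 ± 0.05, edgeR, adjusted p = 0.533). Sdhaf3 had 5.31 and 6.56 CPM against 5.14 and 5.90 CPM (-0.10 ± 0.16, edgeR, adjusted p = 0.878). The groups were apart for Sdhaf2 and Sdhd and overlapped for Sdhaf3, which had 118 to 182 counts in each library. Sdhaf3 was at -0.03 with offsets for GC content and length.

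In complex III, Uqcrq was higher with MFI8 too, at 112 and 111 CPM (log2 fold change 0.16 ± 0.06, edgeR, adjusted p = 0.445), against the same vehicle libraries as for MASM7. Uqcrh had 123 and 120 CPM with vehicle and 111 and 112 CPM with MFI8 (-0.13 ± 0.05, edgeR, adjusted p = 0.470), and its log2 fold change was -0.04 under the GC and length offsets, which left Uqcrq at 0.17. Uqcrb had 85.3 and 89.0 CPM with vehicle and 77.7 and 81.2 CPM with MFI8, a log2 fold change of -0.13 ± 0.06 (edgeR, adjusted p = 0.485) and of 0.05 with offsets for GC content and length. In Uqcrb, 25.4% of the stretches of 50 bases also occur in pseudogenes.

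In ATP synthase, the membrane subunit Atp5md had 151 CPM in both vehicle libraries and 139 and 138 CPM with MFI8 (log2 fold change -0.13 ± 0.05, edgeR, adjusted p = 0.451). The rotor shaft Atp5c1 had 283 and 295 CPM with vehicle and 268 and 264 CPM with MFI8 (-0.12 ± 0.05, edgeR, adjusted p = 0.464). The stalk subunit Atp5j had 138 and 133 CPM with vehicle and 125 and 123 CPM with MFI8 (-0.12 ± 0.05, edgeR, adjusted p = 0.471). All 3 were lower in both MFI8 libraries. The GC and length offsets left Atp5c1 at -0.11 and brought Atp5md to -0.07 and Atp5j to -0.08. Atp5g1 and Atp5g2 were on the other side, at 135 and 138 CPM and at 58.2 and 60.0 CPM with MFI8 (0.07 ± 0.06 and 0.08 ± 0.07, edgeR, adjusted p = 0.734 and 0.694), while Atp5g3 was at 366 and 355 CPM (-0.06 ± 0.05, edgeR, adjusted p = 0.701). The first vehicle library nearly equalled the first MFI8 library for Atp5g1, and without the second vehicle library Atp5g1 was at 0.02 and Atp5g2 at 0.05. Atpif1 had 59.2 and 59.3 CPM, inside the vehicle range (-0.01 ± 0.07, edgeR, adjusted p = 0.972).

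**Figure D3:**
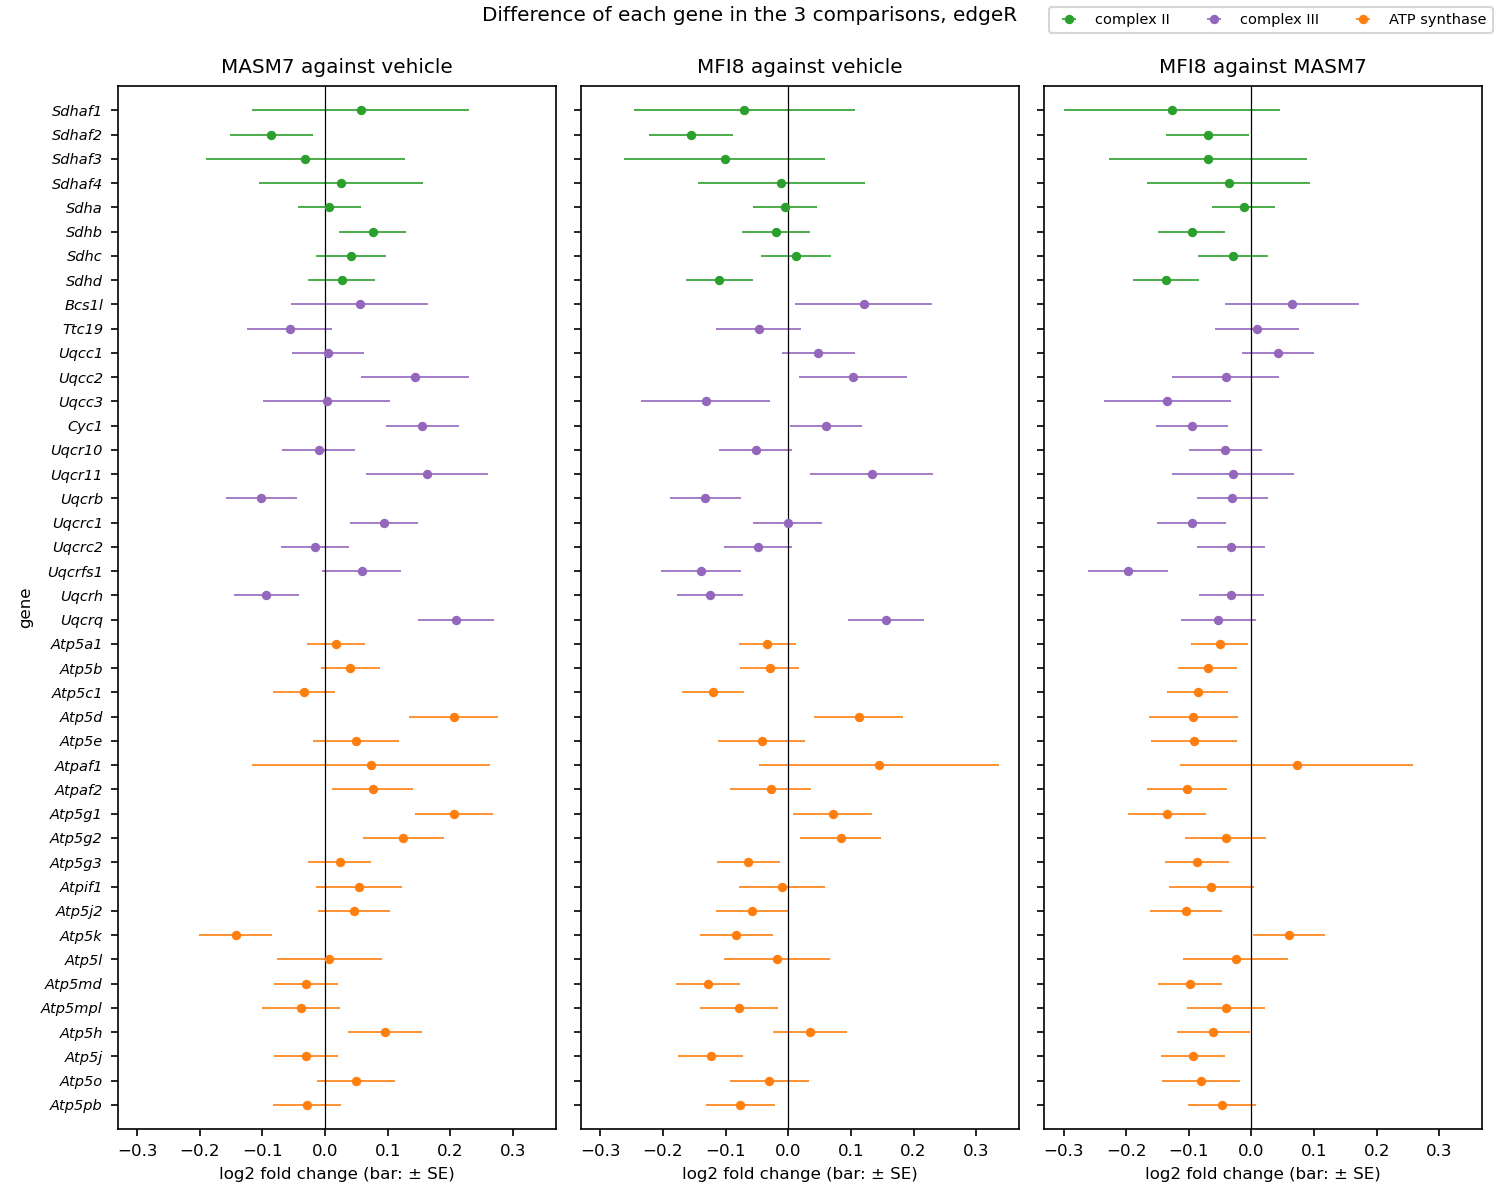
Log2 fold change of each of the 42 genes in the 3 comparisons, with bars of ± 1 SE from edgeR and colours for the complexes. Points lie mostly right of 0 with MASM7 (29 of 42), mostly left with MFI8 (30 of 42) and left of 0 for 37 of 42 when MFI8 is set against MASM7.

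MFI8 against MASM7 set the inhibitor against the activator, at concentrations that differed, so that the values below compare the treatments as given. No member passed: edgeR's quasi-likelihood test called 0 genes (0.0%), with a smallest adjusted p of 0.582 among the members, and DESeq2 called 24 genes, 0 of them members. With the library number as a block 439 genes were called, among them 1 member, Uqcrfs1 (edgeR, adjusted p = 0.0169). At an unadjusted p under 0.05, 2 of the 42 were lower, Uqcrfs1 and Sdhd, or 4.76%, where 2.95% of all genes were, and 0 were higher, where 4.23% were. The count in either direction moved with the fit. It was 0 with limma on log2(TPM + 1) (1136 of 14710 genes) and 4 with offsets for GC content and length (1087 of 14290 genes). A log2 fold change below 0 was found for 37 of the 42, and the median was -0.063, against -0.0015 for all genes. With offsets for GC content and length 33 of the 42 were below 0 and the median was -0.038, against -0.0053 for all genes. Both MFI8 libraries were below both MASM7 libraries for 22 of the 42, or 52.4%, where 19.6% of all genes were, and above them for 1, Atp5k, where 19.6% were. By complex, the count of such lower genes was 3 of 8 in complex II, 5 of 14 in complex III and 14 of 20 in ATP synthase. Without the second MASM7 library, 32 of the 42 were below 0 and the median was -0.027. On log2(TPM + 1) 25 were below 0, but there the median of all genes was higher too, at 0.038, against -0.019 for the members.

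The medians were -0.070 for complex II (8 of 8 genes below 0), -0.037 for complex III (11 of 14; 9 of 14 and -0.019 with the offsets, 0.0065 on log2(TPM + 1)) and -0.075 for ATP synthase (18 of 20). Without the second MASM7 library they were -0.039 (7 of 8), -0.016 (9 of 14) and -0.056 (16 of 20). The 5 genes above 0 were Atp5k, Atpaf1, Bcs1l, Ttc19 and Uqcc1, of which 4 are assembly factors and Atp5k a subunit. The Rieske protein Uqcrfs1 had 143 and 160 CPM with MASM7 and 132 and 133 CPM with MFI8 (log2 fold change -0.20 ± 0.06, unadjusted 95% interval -0.34 to -0.06, edgeR, adjusted p = 0.582), and vehicle, at 142 and 149 CPM, overlapped with MASM7. Sdhd had 154 and 162 CPM with MASM7 and 144 and 143 CPM with MFI8 (-0.14 ± 0.05, interval -0.25 to -0.02, edgeR, adjusted p = 0.649). Atp5g1 had 143 and 157 CPM with MASM7 and 135 and 138 CPM with MFI8 (-0.13 ± 0.06, edgeR, adjusted p = 0.691). The groups were apart for each of these. Without the second MASM7 library the log2 fold change was -0.11 for Uqcrfs1, -0.10 for Sdhd and -0.07 for Atp5g1.

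The remaining genes named for this comparison differed by about 0.1 or less. Atp5md and Atp5j2 had log2 fold changes of -0.10 ± 0.05 and -0.10 ± 0.06 (edgeR, adjusted p = 0.717 and 0.726). Uqcrc1 and Cyc1 had -0.10 ± 0.05 and -0.10 ± 0.06 (edgeR, adjusted p = 0.737 and 0.753), and Sdhb and Sdhaf2 had -0.10 ± 0.05 and -0.07 ± 0.07 (edgeR, adjusted p = 0.729 and 0.836). The Sdhaf2 groups overlapped, and its value was -0.12 without the second MASM7 library and -0.02 without the first. Without the second, Cyc1 was at -0.02 and Uqcrc1 at -0.06, and with offsets for GC content and length Cyc1 was at -0.02 and Sdhb at -0.05. The median SE of the 42 genes was 0.059, so that single differences of this size were not detectable with 2 libraries a group.

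The 3 complexes were compared through the median of their genes in each library, as the difference from the mean of the 6 libraries in log2 CPM. For complex II, the libraries with MFI8 were lowest, at -0.060 and -0.027, and those with vehicle (0.00025 and 0.013) and MASM7 (0.015 and 0.037) were above them. For complex III, the vehicle libraries were at 0.013 and -0.037 and spanned those with MFI8, at -0.019 and -0.035, while MASM7 was at 0.0047 and 0.068. For ATP synthase, the vehicle libraries were at 0.032 and -0.038, the MFI8 libraries at -0.028 and -0.039 and the MASM7 libraries at 0.0067 and 0.052. MFI8 and MASM7 did not overlap in any of the 3 complexes, and vehicle overlapped with MASM7 in complex III and ATP synthase. In summed TPM of the subunits, complex II was at 857 and 876 TPM with vehicle, 869 and 884 TPM with MASM7 and 854 and 841 TPM with MFI8. Complex III was at 3173 and 3080 TPM with vehicle, 3109 and 3286 TPM with MASM7 and 3158 and 3124 TPM with MFI8. ATP synthase was at 6596 and 6523 TPM, 6488 and 6697 TPM, and 6525 and 6483 TPM. In these TPM sums the only group that did not overlap with vehicle was MFI8 in complex II. In summed CPM more groups were apart from vehicle. Complex II was at 542 and 543 CPM with vehicle, 551 and 556 CPM with MASM7 and 535 and 523 CPM with MFI8. ATP synthase was at 5272.6 and 5198.5 CPM with vehicle and 5103.8 and 5103.6 CPM with MFI8. The separation of the complexes thus depended on the unit, and 2 libraries against 2 cannot be tested below an exact permutation p of 0.333.

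**Figure D4:**
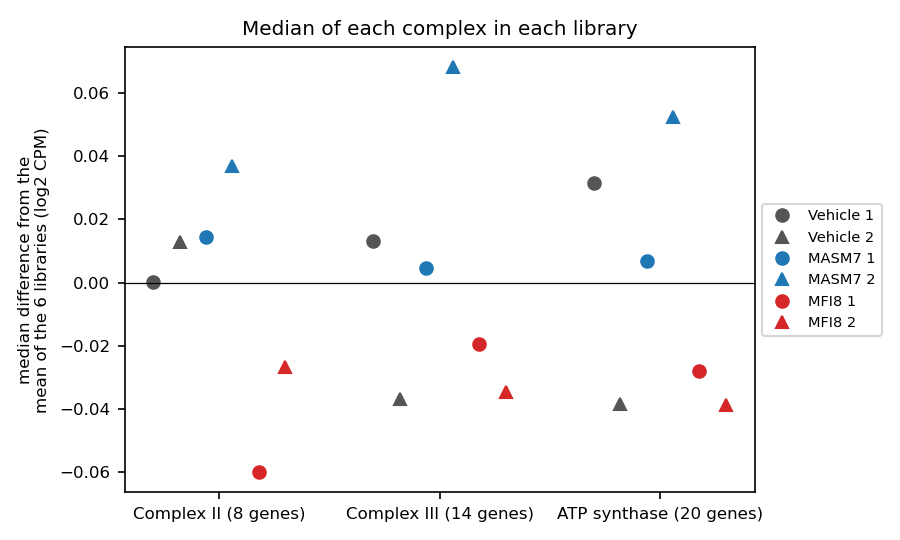
Median over the genes of each complex in each library, as the difference from the mean of the 6 libraries in log2 CPM. Both MFI8 libraries lie below 0 in all 3 complexes, the second MASM7 library is highest in each (0.037, 0.068 and 0.052), and the vehicle libraries lie apart in complex III and ATP synthase.

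The RNAs of the mitochondrially encoded subunits were counted unevenly. mt-Cytb, cytochrome b of complex III, had 2099 and 2218 CPM with vehicle, 2056 and 1854 CPM with MASM7 and 1656 and 1674 CPM with MFI8. Its log2 fold change was -0.37 ± 0.06 with MFI8 (edgeR, adjusted p = 0.0924) and -0.14 ± 0.06 with MASM7 (edgeR, adjusted p = 0.477), and MFI8 against MASM7 gave -0.23 ± 0.06 (edgeR, adjusted p = 0.446). With MFI8 the adjusted p equalled the smallest over all genes, and no nuclear subunit of complex III was as far from vehicle. The MFI8 libraries were at 76.7% and 77.5% of the vehicle mean for mt-Cytb. They were at 90.5% and 91.1% for Uqcrfs1, the nuclear subunit with the lowest log2 fold change, and at 112% and 111% for Uqcrq, the highest. mt-Atp6 and mt-Atp8 had 0 to 3 counts in every library and were not tested. These genes overlap in part in the mitochondrial genome. How reads in overlaps, or reads that match several places, were counted is not given in the sources used here. Their counts can therefore not be read as levels, and the cause of the low counts was not tested.

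**Figure D5:**
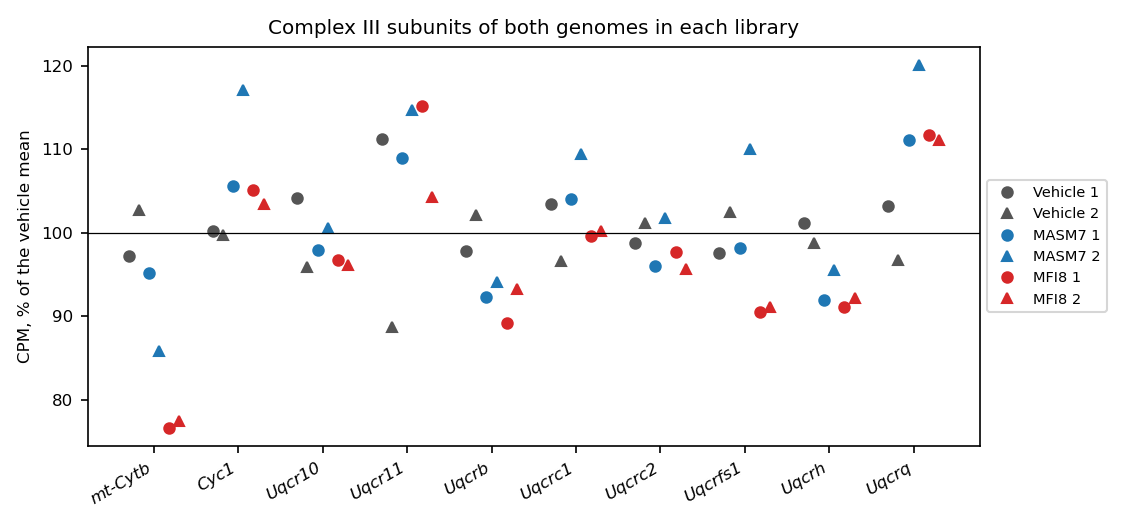
CPM of mt-Cytb and of the 9 nuclear subunits of complex III in each library, as a percentage of the vehicle mean, with circles for libraries numbered 1 and triangles for those numbered 2. mt-Cytb with MFI8 lies lowest (76.7% and 77.5%), while Uqcrq lies above 110% with both compounds.

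Genes that serve the complexes were read from a list of 26 partners, of which 24 could be tested. None had an adjusted p under 0.05 in any comparison with edgeR, and 1 had an unadjusted p under 0.05 in each, mt-Cytb. The median log2 fold change was -0.021 with MFI8 (10 above 0, 14 below) and 0.024 with MASM7 (13 above 0, 11 below). For MFI8 against MASM7 it was 0.00098, with 12 above 0 and 12 below, whereas 37 of the 42 members were below 0. Slc25a3, the carrier that brings phosphate to ATP synthase, had 692 and 700 CPM with vehicle, 713 and 749 CPM with MASM7 and 687 and 681 CPM with MFI8. Slc25a4, which exchanges ADP for ATP, had 547 and 557 CPM, 558 and 582 CPM, and 537 and 553 CPM. Cycs, the cytochrome c that complex III reduces, had 109 and 118 CPM with vehicle, 99.7 and 109 CPM with MASM7 and 104 and 111 CPM with MFI8. Tmem70, needed to assemble the c ring, overlapped between all groups at 49.5 to 53.6 CPM.

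The 42 genes lie on 17 chromosomes, and 14 of them share exon bases with a gene on the opposite strand, among them Atp5j with Gabpa (397 bases), Atpif1 with Gm12999 (485 bases), Uqcrc2 with Pdzd9 (504 bases) and Sdhaf1 with E130208F15Rik (1733 bases of 2490). The strand setting of the counting is not given in the sources used here, so that reads of such pairs may not have been told apart. A total of 23 of the 42 shared at least 1 stretch of 50 bases with a transcript of another gene, 19 of them with a pseudogene, and the median share was 0.286%. After Atp5g2 and Uqcrb the highest shares were those of Atpaf1 (21.7%), Atp5h (19.9%) and Atp5o (17.1%).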

How the data were processed

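Polyadenylated RNA of treated MEFs was made into TruSeq libraries, and 6 libraries in 3 groups were analysed. According to the methods and the submitters' processing notes, the authors used Trimmomatic for trimming, STAR for alignment to GRCm38 and featureCounts for the raw counts per gene that they deposited. The authors also deposited normalized counts, a signal on the count scale equal to the raw counts over 1 size factor per library, and TPM values. Versions of the aligner and counter, the annotation release and the strand setting are not given in the sources used here.

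One edgeR 4.0.16 model (R 4.3.3) with TMM factors and filterByExpr (14290 genes) held the raw counts of the 6 libraries, and each comparison was a two-sided quasi-likelihood F test, with p-values adjusted by Benjamini-Hochberg across the 14290 genes and a threshold of 0.05. The fit was also run on simulated counts with changes larger than any seen among the members. That run does not show whether changes of the size seen here can be found. Standard errors are the log2 fold change over the square root of F. DESeq2 1.42.0, limma 3.58.1 on log2(TPM + 1), other scalings and filters, the replicate number as a block, offsets for GC content and length (lowess, span 0.3) and leaving out each library were alternatives, and levels per length of the principal transcript were added after seeing the data.

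The members and lists were chosen with earlier results of these data known. The genes named were, in each comparison, the 3 of each complex with the smallest p, the c-subunit genes and Atpif1 against vehicle, and the partners of the complexes, of which those described were picked after their values were seen. Gene structures came from GENCODE vM21, in which Atp5md and Atp5pb carry the names Usmg5 and Atp5f1.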

Additional observations from a re-analysis of the deposited data

How the results depend on the processing

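The 562 values of single genes under the alternatives were fold changes and c-subunit shares, and 525 of them were the same. For a fold change this meant the same direction and side of the threshold, and for a share a difference under the SD of its group. Of the rest, 11 fold changes changed sign, 10 passed the threshold only under the alternative, and 16 shares moved. Of 288 summary values, 246 were the same and 42 moved. The cause was not tested for any of them. The number of genes called for MFI8 against vehicle, MASM7 against vehicle and MFI8 against MASM7 was 0 in each with edgeR, but 256, 127 and 168 without the filter on low counts, and 47, 3 and 24 with DESeq2. With only the compared groups in the fit it was 1 for MASM7 against vehicle and 2 for MFI8 against MASM7. None of these fits called a member. With the replicate number as a block (replicate block), 720, 554 and 439 genes and 0, 3 and 1 members were called, which were Atp5d, Atp5g1 and Uqcrq, higher with MASM7, and Uqcrfs1, lower with MFI8 than with MASM7. With the replicate block and offsets for GC content and length, 594, 152 and 674 genes and 2, 2 and 2 members were called (Uqcrq and Atp5c1, Atp5g1 and Uqcrq, and Atp5g1 and Uqcrfs1). No source ties the libraries of a number together. The deviations of same-numbered libraries correlated over 14290 genes at 0.188 (vehicle and MASM7), 0.152 (vehicle and MFI8) and 0.165 (MASM7 and MFI8), which with 2 numbers a group is a single value per pair of groups. Over the 7145 more expressed genes these were 0.508, 0.621 and 0.538, and over the 42 members 0.149, 0.617 and -0.12. The summed fibroblast markers were also lower in the library numbered 2 of each group, at 5624 against 7013 TPM with vehicle, 6185 against 7052 TPM with MASM7 and 5468 against 6654 TPM with MFI8.

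With limma on log2(TPM + 1), the median of complex II was -0.0077 for MFI8 against vehicle and -0.026 for MFI8 against MASM7, and that of all members was -0.019 for MFI8 against MASM7, where the medians of all genes were 0.025 and 0.038 in these comparisons. Uqcrb was above 0 with offsets for GC content and length, at 0.046 with MFI8 and 0.073 with MASM7, and with the replicate block added at 0.048 and 0.074. Atpif1 with MFI8 was at 0.00091 with library size alone and at 0.018 with limma, where the medians of all genes were 0.013 and 0.025, against 0.0027 in the TMM fit.

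Leaving out each library in turn, which leaves its group with 1 library that is assumed to vary like the others, gave 0 to 26, 0 to 2 and 0 to 24 genes called in the order above. For MFI8 against vehicle the median ran from -0.092 to -0.0097 in complex II, from -0.028 to 0.030 in complex III, from -0.075 to -0.0065 in ATP synthase and from -0.038 to -0.0073 over all members. For MASM7 against vehicle it ran from 0.00042 to 0.049, from -0.026 to 0.060, from -0.0039 to 0.074 and from -0.0038 to 0.048. For MFI8 against MASM7 it ran from -0.090 to -0.039, from -0.065 to -0.016, from -0.092 to -0.056 and from -0.081 to -0.027. With MFI8, Sdhaf3 ran from -0.24 to 0.063 and Atpif1 from -0.093 to 0.078. With MASM7, Atp5g3 ran from -0.0030 to 0.050 and Atpif1 from -0.028 to 0.14. With 2 libraries a group and a median standard error near 0.06, differences under about 0.1 on the log2 scale could not be resolved for single genes.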
